A study of Rattus norvegicus with 36 samples.

Results

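Colon tumors of Pirc rats on the control diet (PCT) were compared with the colon of wild-type (WT) rats on the same diet (WCN). These groups hold 6 of the 18 RNA-seq libraries of the study, 3 for PCT and 3 for WCN, each from a separate rat, and 36 samples make up the series with the small RNA libraries included. All rats were males of the F344 strain fed the AIN93 diet, and tissue was taken at an age of 30 weeks. Pirc rats (F344/NTac-Apc am1137) carry an Apc mutation in the germline, so every cell of the animal has it, while WT rats lack it. PCT and WCN therefore differ in genotype and in tumor growth together, and these cannot be told apart in this comparison. Normal-looking colon of the Pirc rats on the control diet (PCN, 3 libraries), which has the genotype without the tumor and comes from the same rats as PCT, is given beside some values. Tumors (PST) and WT colon (WSN) of rats whose diet held 10% freeze-dried spinach, 3 libraries each, give the same contrast in other animals. RNA came from frozen pieces of tissue that hold many cell types, so that fewer cells of a type and less RNA per cell cannot be told apart.

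Apc is part of the complex that marks β-catenin for destruction. When the complex fails, β-catenin collects, enters the nucleus and works with TCF and LEF factors to turn on Wnt target genes, which in the normal colon are active at the crypt base where stem cells divide. Cells that move up the crypt leave this program and become absorptive colonocytes, mucus-making goblet cells, hormone-making enteroendocrine cells or chemosensory tuft cells. The wall around the crypts holds fibroblasts, vessels, immune cells, enteric neurons and smooth muscle.

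TCF and LEF factors are known to bind DNA with the core CTTTGAT or CTTTGAA. Nearly every tested Wnt target was higher in PCT (values follow), so the start regions of these genes were searched for both 7-base cores on either strand. The windows run from 250 bases before to 50 bases after each gene start and come from RefSeq, build GRCr8, and the build behind the deposited values is not given in the sources used here. A window was at hand for 11 of the 18 tested Wnt targets, and 5 of them held a core. CTTTGAT was found in 4 of the 11, against 3.63% of all 33469 windows and 2.43% of the windows of tested genes. CTTTGAA was found in 2 of the 11, against 5.4% of all windows and 3.64% of those of tested genes. Targets were counted as genes and the background as windows. The genes searched were already listed as Wnt targets, so these shares do not test the tumor values. Each line gives a core in capitals with 10 bases on either side, read 5′ to 3′ on the strand of the gene.
Axin2 CTTTGAT: tactttcttgCTTTGATgttgggtaga
Axin2 CTTTGAA: cagatttcgcCTTTGAAaaagctgtgt
Sp5 CTTTGAT: gcaaggccccCTTTGATcaggaaaatc
Nkd1 CTTTGAT: tccgcctcgcCTTTGATgggccgctgc
Mmp7 CTTTGAT, opposite strand: gtcaggaaacATCAAAGtggctctgag
Cd44 CTTTGAA, opposite strand: aggtcactctTTCAAAGcctggaataa
In Axin2 the cores begin 132 and 232 bases before the start (chr10:94398643-94398669 and chr10:94398543-94398569, plus strand), in Sp5 104 bases before it (chr3:75682563-75682589, plus strand) and in Nkd1 141 bases before it (chr19:34722971-34722997, minus strand). The match in Mmp7 lies 13 bases before the start (chr8:13133020-13133046, plus strand) and that in Cd44 43 bases before it (chr3:109699451-109699477, minus strand). A match of letters is no proof of binding, and a window without a core says nothing about a gene.

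Values are RPKM, reads scaled to gene length and to all mapped reads, which can be set side by side between genes. Fold changes are differences of log2(RPKM + 0.5), PCT minus WCN, with their standard error (SE), and a call means an adjusted p (Benjamini-Hochberg) below 0.05 from limma, fitted over all 18 libraries and 11544 genes. Where WCN values are at or near 0 the fold change depends on the offset of 0.5 RPKM. Read totals cannot be had from RPKM, and the depth relative to the median library, read from the spacing of low values, was 0.988 to 1.0 in PCT and 0.621 to 1.52 in WCN. The tissue label was checked with 14 tested markers of epithelium in general, whose summed level was 10810.0 to 11860.0 RPKM in PCT and 12280.0 to 15080.0 RPKM in WCN. Of these, 3 were higher and 2 lower in PCT (higher falls to 1 without PCT 1, lower to 1 without PCT 2, WCN 2 or WCN 3, and median-of-ratios scaling gives 1 higher and 4 lower), and the median log2 fold change of -0.01 became 0.28 with quantile normalization. Apc itself had 15.5, 16.7 and 16.9 RPKM in PCT, against 9.45, 11.8 and 10.4 RPKM in WCN (log2 fold change of 0.61 with an SE of 0.18, adjusted p = 0.0134, not called without WCN 1, adjusted p = 0.0545). With median-of-ratios scaling it was 0.48 (adjusted p = 0.0719) and with quantile normalization 0.42 (adjusted p = 0.11), not called in either. The mutation is a change of sequence that the mRNA level does not test.

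The libraries also differed in Hoxd genes, which are known to mark the end of the colon nearest the rectum. Hoxd13 had 253, 445 and 332 RPKM in PCT, against 16.1, 301 and 2.08 RPKM in WCN and 239, 16.8 and 287 RPKM in PCN. WCN 2 thus lay with the tumors, whereas WCN 1, WCN 3 and PCN 2 were low, and Hoxd10 with 56.9, 101 and 60.3 RPKM in PCT, against 5.54, 68.9 and 3.86 RPKM in WCN followed the same split. Car1, a carbonic anhydrase of absorptive cells, had 278, 34.5 and 109.9 RPKM in PCT, against 2652, 217 and 3599 RPKM in WCN, with WCN 2 far below the other WCN libraries. Because of this spread neither Hoxd13 (adjusted p = 0.0677) nor Car1 (adjusted p = 0.0538) passed the test. On the spinach diet Hoxd13 had 215, 83.8 and 389 RPKM in PST and 94.8, 314 and 71.9 RPKM in WSN, with WSN 2 well above WSN 1 and WSN 3. Where the tissue pieces were taken is not given in the sources used here, and its part in the results was not tested. Calls that are lost when 1 library is left out are given with that library.

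**Figure D1:**
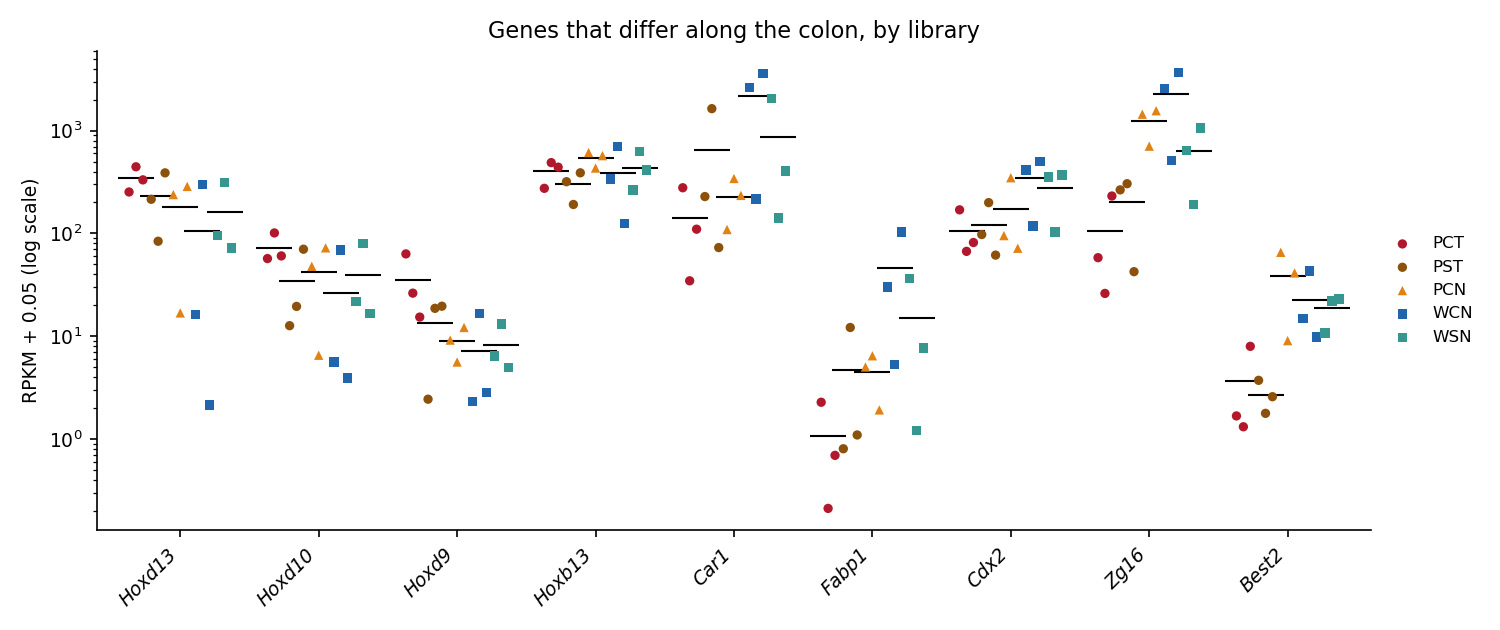
RPKM plus 0.05 on a log axis for 9 genes that differ along the colon, in 3 libraries each of PCT, PST, PCN, WCN and WSN. Points are libraries and lines are group means. Hoxd13 is at 301 RPKM in WCN 2 and at 16.1 and 2.08 RPKM in the other WCN libraries, while Car1 is at 217 RPKM in WCN 2 and at 2652 and 3599 RPKM in the others.

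In PCT 4549 genes were called against WCN, 39.4% of those tested, with 2880 (24.9%) higher and 1669 (14.5%) lower. A log2 fold change of 1 or more was seen for 1093 called genes and of -1 or less for 905. At 3 or more stood 108 genes and at -3 or less 99. The 3 PCT values lay apart from the 3 WCN values for 55.3% of genes, with 35.3% above and 20.1% below. The median log2 fold change over all genes was 0.15, which went to 0.01 with median-of-ratios scaling and to 0.04 with quantile normalization, and the share of calls that were higher went from 63.31% to 48.88% and 51.43%. Small changes should be read against this shift. Lists of genes by cell type and pathway were set beside these background shares, and they stood on both sides of them. Among the members tested, Wnt targets, ribosome biogenesis and neutrophil genes were mostly higher. Goblet cell, tuft cell and smooth muscle genes were mostly lower.

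**Figure D2:**
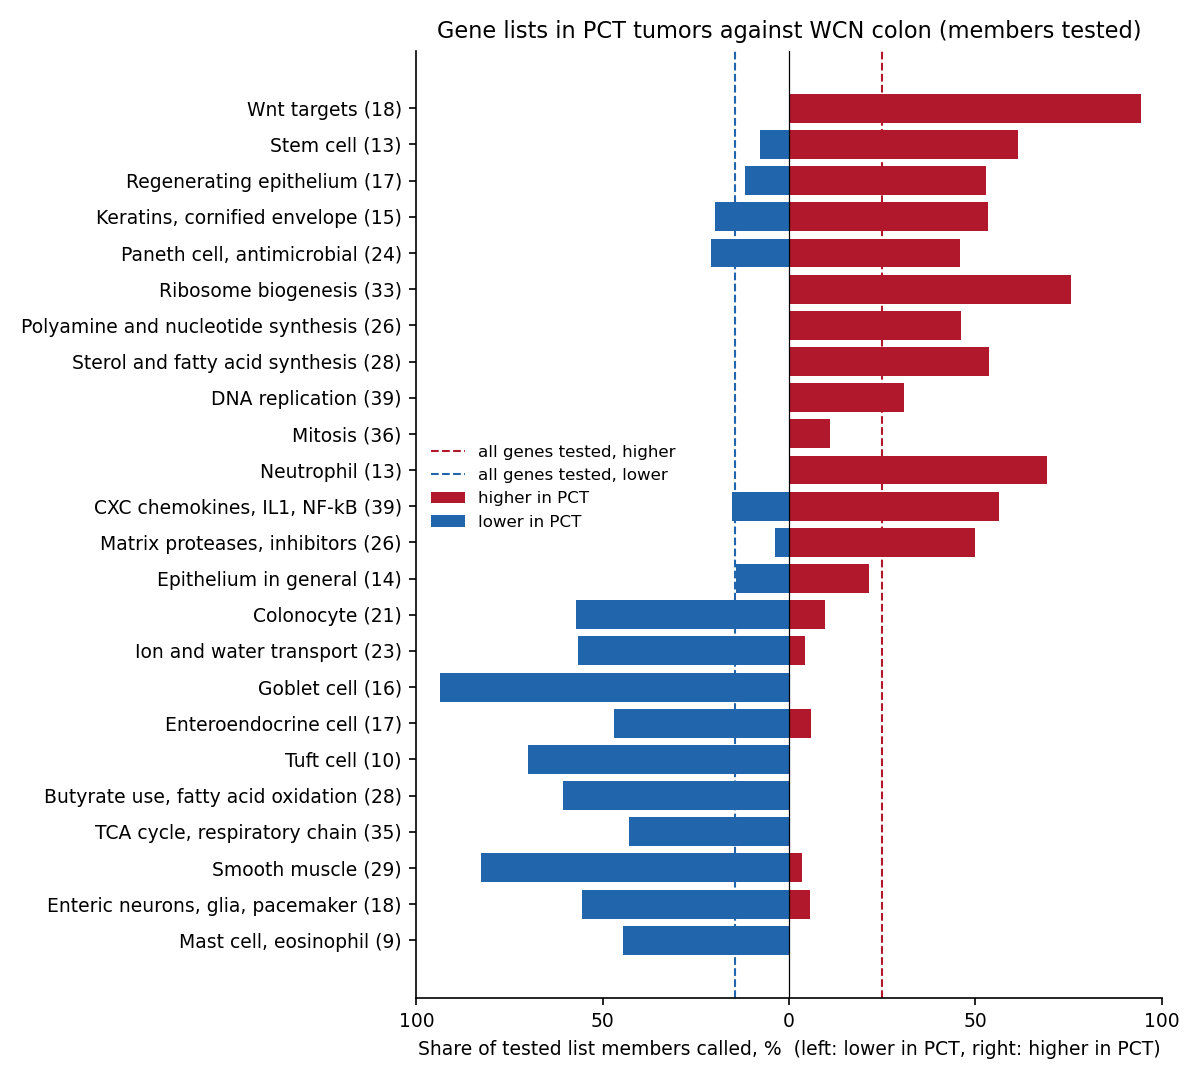
Share of the tested members of 24 gene lists that were called lower (left) or higher (right) in PCT against WCN, with the number tested in brackets. The dashed lines are the shares over all 11544 genes, 24.9% higher and 14.5% lower, and Wnt targets at 17 of 18 higher and goblet cell genes at 15 of 16 lower lie farthest from them.

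The most abundant mRNA of the tumors was Pla2g2a, a secreted phospholipase made by Paneth cells in the small intestine, which took 2.74 to 3.22% of all RPKM in PCT and 0.0315 to 0.0808% in WCN. It had 14886, 12664 and 12621 RPKM in PCT, against 365, 149.6 and 389 RPKM in WCN (log2 fold change of 5.59 with an SE of 0.67, adjusted p = 2.59e-05). The 10 most abundant genes of each group shared Lypd8, Krt19, S100a6 and Lgals3, and the summed share of the top 10 was similar, 7.02 to 7.69% in PCT and 6.56 to 8.63% in WCN. Lypd8, a secreted protein that keeps bacteria from the colon surface, was most abundant in WCN and had 4189, 4416 and 5859 RPKM in PCT, against 5844, 10356 and 11459.5 RPKM in WCN, values that overlap (log2 fold change of -0.89 with an SE of 0.32, adjusted p = 0.0366, not called without PCT 1, PCT 2, WCN 2 or WCN 3 left out alone, adjusted p 0.0943 to 0.146). Krt19, a keratin of simple epithelia, and Lgals4, an epithelial galectin, did not pass the test, at log2 fold changes of -0.43 and -0.17. Gpx2, a glutathione peroxidase of the gut epithelium, joined the top 10 in PCT with 1681, 1381 and 1697 RPKM in PCT, against 146, 181 and 98.6 RPKM in WCN (log2 fold change of 3.52 with an SE of 0.35, adjusted p = 6.04e-06). The WCN top 10 also held Guca2a, Zg16, Itln1, Tff3 and Pigr, which are described with their cell types or lists, and Car1, and none of these 6 was in the PCT top 10.

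Of the 12 largest rises, 5 were α-defensins, antimicrobial peptides stored by Paneth cells, which the normal colon lacks. Defa24 had 1039, 1072 and 728 RPKM in PCT, against 0, 0.66 and 0.12 RPKM in WCN (log2 fold change of 10.36 with an SE of 0.70, adjusted p = 4.75e-07). Defa6 had 486, 599 and 632 RPKM in PCT, against 0, 0.24 and 0.35 RPKM in WCN (log2 fold change of 9.71 with an SE of 0.99, adjusted p = 1.16e-05). Defa8, Defal1 and Defa9 rose alike, with log2 fold changes of 9.47, 8.94 and 8.65. The largest changes were picked only among called genes without overlap of PCT and WCN, so that lack of overlap is no further result. The highest WCN value among these 5 α-defensins was 6.72 RPKM, for Defa9 in WCN 2. These genes are close copies of each other, so reads may have been shared among them and the split between members is uncertain. Among the other large rises, Mmp7 had 635, 769.6 and 249 RPKM in PCT, against 0, 0.47 and 0.10 RPKM in WCN (log2 fold change of 9.55 with an SE of 1.04, adjusted p = 1.71e-05), and this matrix protease is known to cut α-defensins into their active form in mice. Krt36, a hair-type keratin, had 127, 243 and 46.6 RPKM in PCT, against 0, 1.08 and 0.86 RPKM in WCN (log2 fold change of 6.79 with an SE of 0.87, adjusted p = 4.68e-05). The brachyury gene T, a transcription factor of early mesoderm, averaged 58.0 RPKM in PCT and 0.05 RPKM in WCN (log2 fold change 6.57, adjusted p = 1.55e-05). Aldh1a3, an enzyme that makes retinoic acid, had 176, 206 and 89.4 RPKM in PCT, against 0.57, 5.79 and 0.56 RPKM in WCN (log2 fold change of 6.27 with an SE of 0.76, adjusted p = 3.04e-05), with WCN 2 nearest the tumors. RGD1310110, named here by its symbol only, had 39.1, 102 and 22.6 RPKM in PCT, against 0.50, 0.28 and 0.22 RPKM in WCN (log2 fold change of 5.78 with an SE of 0.74, adjusted p = 4.03e-05).

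The largest falls included secreted proteins and enzymes. Retnla had 0, 0.61 and 0 RPKM in PCT, against 250.3, 63.8 and 314 RPKM in WCN (log2 fold change of -8.04 with an SE of 1.64, adjusted p = 0.00158) and Retnlb had 0, 1.65 and 0 RPKM in PCT, against 166, 55.5 and 128 RPKM in WCN (log2 fold change of -7.03 with an SE of 1.48, adjusted p = 0.00202), both of them resistin-like secreted proteins. Their PCN values were 0.16, 176 and 0.36 RPKM and 0, 104 and 0.71 RPKM, so that PCN 1 and PCN 3 lay with the tumors and PCN 2 with WCN. Cmah, the enzyme that turns the sialic acid Neu5Ac into Neu5Gc, had 0.71, 0.39 and 0.54 RPKM in PCT, against 78.2, 58.5 and 69.6 RPKM in WCN (log2 fold change of -6.05 with an SE of 0.43, adjusted p = 4.75e-07), and its PCN values of 11.8, 5.32 and 1.75 RPKM lay between the groups. Nov, a matricellular protein of the CCN family, had 2.34, 2.74 and 53.05 RPKM in PCT, against 1006, 462 and 444 RPKM in WCN (log2 fold change of -6.23 with an SE of 0.88, adjusted p = 0.000116), with PCT 3 well above the other tumors. The pentraxin-like Mptx1 had 1.40, 23.5 and 5.79 RPKM in PCT, against 654, 421 and 226 RPKM in WCN (log2 fold change of -5.91 with an SE of 1.39, adjusted p = 0.00413), with PCN at 8.38, 181 and 7.11 RPKM. The rule that picked the largest falls likewise took only genes with every WCN value above every PCT value. Dpep1, a dipeptidase, had 2.09, 0.25 and 1.31 RPKM in PCT, against 70.9, 6.69 and 192 RPKM in WCN (log2 fold change of -4.93 with an SE of 1.21, adjusted p = 0.00541), with WCN 2 much nearer to the tumors than WCN 1 and WCN 3.

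Wnt signaling was examined by the roles of its genes. Among targets, 17 of 18 tested members rose and none fell, with a median log2 fold change of 2.47. Axin2, a feedback inhibitor and the most used readout of the pathway, had 92.02, 124 and 62.4 RPKM in PCT, against 10.00, 9.85 and 11.3 RPKM in WCN (log2 fold change of 3.05 with an SE of 0.34, adjusted p = 1.53e-05). Lgr5, the R-spondin receptor that marks crypt base stem cells, had 24.98, 87.2 and 26.8 RPKM in PCT, against 0.52, 4.61 and 0.95 RPKM in WCN (log2 fold change of 4.33 with an SE of 0.77, adjusted p = 0.000553). Sp5, a transcription factor that Wnt signaling turns on directly, had 7.94, 34.4 and 6.75 RPKM in PCT, against 0.17, 0.07 and 0.47 RPKM in WCN (log2 fold change of 4.16 with an SE of 0.89, adjusted p = 0.00189). For all 3 every tumor was above every WCN library, and PCT 2 was the highest tumor.

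Targets that encode inhibitors of the pathway were among the steepest rises. Notum, which inactivates Wnt ligands, had 9.28, 47.8 and 10.7 RPKM in PCT, against 0, 0 and 0.02 RPKM in WCN (log2 fold change of 5.10 with an SE of 0.79, adjusted p = 0.000188). Wif1, which binds Wnt ligands outside the cell, had 7.45, 57.8 and 14.8 RPKM in PCT, against 0.46, 0.10 and 0.66 RPKM in WCN (log2 fold change of 4.46 with an SE of 0.74, adjusted p = 0.000316). Both were at or near 0 in WCN and highest in PCT 2. Nkd1, Rnf43 and Sfrp2 also rose, with log2 fold changes of 2.49, 2.16 and 2.27. Rnf43, which removes Frizzled receptors from the cell surface, had 97.5, 133 and 69.3 RPKM in PCT, against 18.9, 23.2 and 21.9 RPKM in WCN. Over the whole list of inhibitors 7 of 14 rose and 2 fell (1 without PCT 1). The 2 that fell, Nkd2 and Sfrp5, were picked out after their values were seen, and had log2 fold changes of -0.86 and -1.49. Dkk2, the tested target that was not called, had 1.52, 6.93 and 2.02 RPKM in PCT, against 2.76, 1.30 and 2.41 RPKM in WCN, and these values overlap. Sfrp1 and Dkk3 did not pass the test either, at log2 fold changes of -0.33 and -0.07.

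Of 24 Wnt ligand and receptor genes 7 were higher (29.17%) and 4 lower (16.67%), near the 24.9% and 14.5% over all genes, with a median of -0.06. Fzd10, a Frizzled receptor, had 6.96, 15.1 and 5.97 RPKM in PCT, against 0.54, 0.37 and 0.80 RPKM in WCN (log2 fold change of 3.11 with an SE of 0.63, adjusted p = 0.00137). Wnt3, a ligand of the crypt base, had 15.00, 12.3 and 8.29 RPKM in PCT, against 0.92, 0.61 and 2.53 RPKM in WCN (log2 fold change of 2.84 with an SE of 0.63, adjusted p = 0.00259). The receptor gene Fzd6 and the co-receptor gene Lrp6 rose less, by 1.18 and 1.02. Fzd4 fell, with 1.40, 1.84 and 3.09 RPKM in PCT, against 7.53, 3.82 and 4.35 RPKM in WCN (log2 fold change of -1.13 with an SE of 0.29, adjusted p = 0.00598). Rspo3, a ligand of Lgr receptors that comes from the stroma, was at 0, 0 and 0.54 RPKM in PCT and 2.34, 5.58 and 3.91 RPKM in WCN (log2 fold change -2.73, adjusted p = 3.37e-05, chosen after its values were seen). Inside the cell, Ctnnb1, which encodes β-catenin, had 286, 277 and 219 RPKM in PCT, against 105, 134 and 138 RPKM in WCN (log2 fold change of 1.05 with an SE of 0.16, adjusted p = 0.000152). Gsk3b and Csnk1a1, kinases of the destruction complex, rose by 1.21 and 0.84. Of the TCF genes, Tcf7l2 and Tcf7l1 fell. Tcf7l1, a repressor of targets in stem cells, had 1.97, 3.42 and 2.91 RPKM in PCT, against 11.8, 14.1 and 9.67 RPKM in WCN (log2 fold change of -1.93 with an SE of 0.20, adjusted p = 7.77e-06), and Tcf7l2, the main TCF of the gut epithelium, had 68.2, 63.5 and 66.5 RPKM in PCT, against 84.05, 118 and 111 RPKM in WCN (log2 fold change of -0.64 with an SE of 0.17, adjusted p = 0.00644). All PCT values of both lay below all WCN values.

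**Figure D3:**
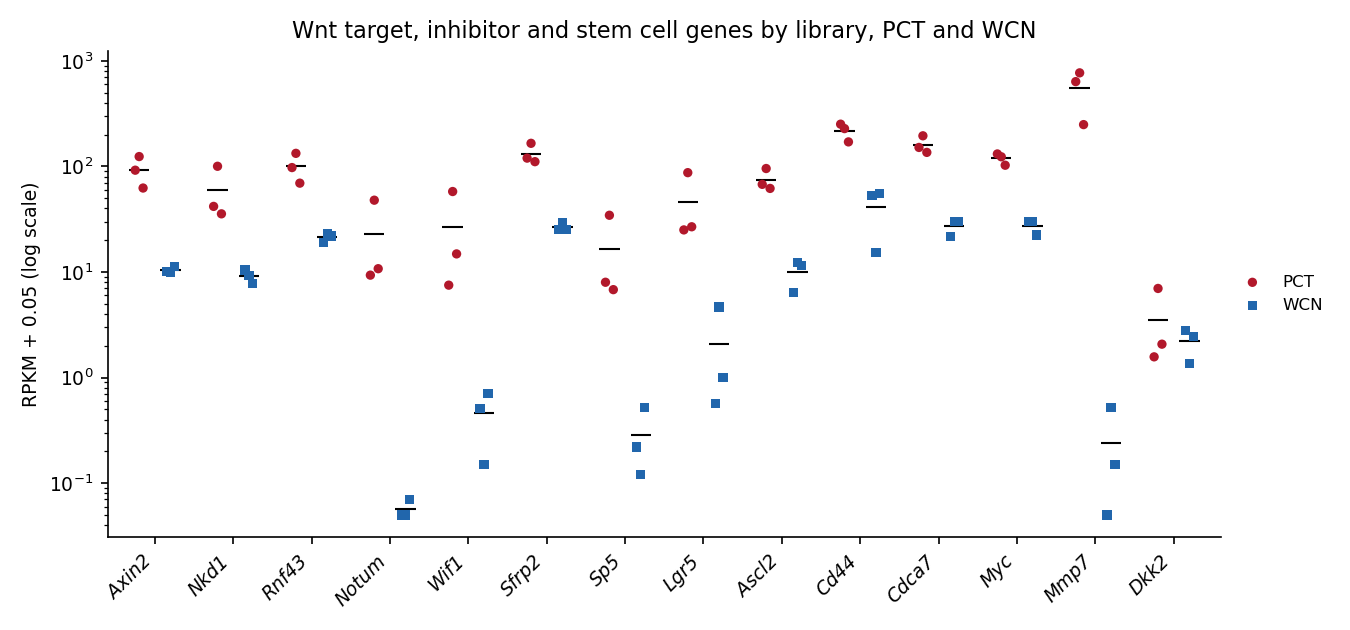
RPKM plus 0.05 on a log axis for 14 Wnt target, inhibitor and stem cell genes in 3 PCT and 3 WCN libraries. Points are libraries and lines are means. Except for Dkk2, whose values overlap, each gene has all PCT points above all WCN points, and PCT 2 is the highest tumor for Axin2, Notum, Wif1, Sp5 and Lgr5. The genes were picked for the figure, and among stem cell genes not shown Smoc2 overlapped and Prom1 fell.

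Stem cell genes were mostly higher. Of 13 tested, 8 rose and 1 fell. Ascl2, a transcription factor that sets the Lgr5 stem cell state, had 67.6, 95.5 and 61.8 RPKM in PCT, against 6.36, 12.2 and 11.4 RPKM in WCN (log2 fold change of 2.87 with an SE of 0.48, adjusted p = 0.00035). Cd44, a hyaluronan receptor, had 251, 228 and 171 RPKM in PCT, against 52.7, 15.2 and 55.7 RPKM in WCN (log2 fold change of 2.57 with an SE of 0.52, adjusted p = 0.00137). Cdca7 rose by 2.54 and Tnfrsf19 by 2.48 (not called without PCT 2, PCT 3, WCN 1 or WCN 2 left out alone, adjusted p 0.0508 to 0.156, log2 fold change 1.42 without PCT 2). Olfm4, a stem cell marker of human gut, had 154, 7.44 and 9.61 RPKM in PCT, against 2.04, 0.10 and 17.6 RPKM in WCN, and with 1 tumor far above the other 2 it did not pass the test (adjusted p = 0.243). Smoc2, with 15.8, 18.01 and 22.4 RPKM in PCT, against 20.8, 13.5 and 16.7 RPKM in WCN, overlapped between the groups (adjusted p = 0.726). Prom1 was the member that fell, with 46.97, 21.9 and 40.5 RPKM in PCT, against 114, 75.1 and 143 RPKM in WCN (log2 fold change of -1.61 with an SE of 0.34, adjusted p = 0.00175).

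Genes that mark regenerating or fetal-like gut epithelium were mostly higher, 9 of 17 tested, with 2 lower and a median of 1.75. F3, tissue factor, which starts blood clotting, had 165, 36.7 and 243 RPKM in PCT, against 15.8, 20.8 and 16.02 RPKM in WCN (log2 fold change of 2.68 with an SE of 0.65, adjusted p = 0.00463), with PCT 2 well below the other tumors. Every tumor was above every WCN library for F3. Emp1 was an exception, with 171, 77.5 and 144 RPKM in PCT, against 689, 309 and 1004 RPKM in WCN (log2 fold change of -2.27 with an SE of 0.56, adjusted p = 0.00499). Clu and Cldn4, also on this list, did not pass the test, at log2 fold changes of -0.14 and 0.62.

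Some mRNAs of cornified, skin-like epithelium were found almost only in the tumors. Sprr1a, a cornified envelope protein, had 55.1, 29.1 and 30.03 RPKM in PCT, against 0, 0 and 0 RPKM in WCN (log2 fold change of 6.21 with an SE of 0.43, adjusted p = 4.75e-07). Tgm1, the transglutaminase that cross-links that envelope, had 37.99, 9.66 and 30.7 RPKM in PCT, against 0.14, 0.10 and 0.06 RPKM in WCN (log2 fold change of 5.26 with an SE of 0.53, adjusted p = 6.23e-06). Cnfn had 13.6, 7.59 and 3.24 RPKM in PCT, against 0, 0 and 0 RPKM in WCN (log2 fold change of 3.91 with an SE of 0.40, adjusted p = 7.15e-06). All 3 were listed at 0 or close to 0 in every WCN library. The desmosomal plakin gene Ppl rose by 4.03. In all, 8 of 15 keratin and envelope genes rose (53.33%, against 24.9% over all genes) and 3 fell (1 without PCT 1, PCT 2 or WCN 2 left out alone, 5 with median-of-ratios scaling). Genes near 0 in WCN can pass the filter on low values through their tumor values alone. With no filter 10 of 18 rose and 2 fell. With at least 5 RPKM required in 3 libraries 6 of 13 rose and 3 fell, and the list median went from 0.79 to -0.22. Krt20, the keratin of surface colonocytes, was among those that fell, with 209, 93.6 and 325 RPKM in PCT, against 1079, 830.4 and 1307 RPKM in WCN (log2 fold change of -2.50 with an SE of 0.51, adjusted p = 0.00141). Krt8 did not pass the test (log2 fold change -0.74).

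In the list of antimicrobial and mucosal defense genes, which holds 4 of the α-defensins above and Pla2g2a, 11 of 24 tested were higher and 5 lower. Duoxa2, the maturation factor of the dual oxidase Duox2 that releases hydrogen peroxide at the epithelial surface, had 251, 201 and 267 RPKM in PCT, against 20.5, 11.4 and 29.00 RPKM in WCN (log2 fold change of 3.61 with an SE of 0.42, adjusted p = 2.1e-05). S100a9, a subunit of calprotectin that neutrophils and inflamed epithelium make, had 797, 901 and 683 RPKM in PCT, against 18.6, 33.6 and 5.49 RPKM in WCN (log2 fold change of 5.65 with an SE of 0.70, adjusted p = 3.74e-05). The tumors exceeded WCN in every library for both. Reg3b, Reg3g, Slpi and Wfdc2 did not pass the test, at log2 fold changes of 4.82, 2.91, 1.14 and -0.51. Itln1, an intelectin that binds bacterial sugars, and Pigr, which carries IgA across the epithelium, fell. Itln1 had 337, 433 and 654 RPKM in PCT, against 2765, 1829 and 1774 RPKM in WCN (log2 fold change of -2.18 with an SE of 0.40, adjusted p = 0.000658). Pigr had 829, 1071 and 1726 RPKM in PCT, against 3815, 2689.9 and 2956 RPKM in WCN (log2 fold change of -1.44 with an SE of 0.28, adjusted p = 0.000987).

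Absorptive colonocyte genes were lower in PCT. Of 21 tested, 12 fell and 2 rose, with a median log2 fold change of -2.07. Slc26a3, the chloride and bicarbonate exchanger whose loss causes chloride diarrhea, had 11.7, 3.96 and 30.7 RPKM in PCT, against 239.8, 413 and 446 RPKM in WCN (log2 fold change of -4.89 with an SE of 0.80, adjusted p = 0.000323). Guca2a, the hormone guanylin, which sets fluid secretion, had 165, 391 and 276 RPKM in PCT, against 3187, 2017 and 6391 RPKM in WCN (log2 fold change of -3.72 with an SE of 0.47, adjusted p = 3.74e-05). Tmigd1 had 2.16, 0.17 and 0.52 RPKM in PCT, against 19.9, 12.03 and 71.8 RPKM in WCN (log2 fold change of -4.44 with an SE of 0.92, adjusted p = 0.00173). No PCT library reached the lowest WCN library in these genes. Fabp1 and Aqp8, a fatty acid binding protein and a water channel, fell, but not with every library left out, Fabp1 at a log2 fold change of -4.38 (not called without PCT 2, PCT 3, WCN 1 or WCN 3 left out alone, adjusted p 0.0608 to 0.114) and Aqp8 at -4.08 (not called without WCN 3, adjusted p = 0.0501). Without WCN 1, WCN 2 or WCN 3 in turn the number that fell was 11, 13 and 9. The 2 colonocyte genes that rose, chosen after their values were seen, were Clca4 with 418, 387 and 746 RPKM in PCT, against 39.7, 76.4 and 94.6 RPKM in WCN (log2 fold change of 2.90 with an SE of 0.66, adjusted p = 0.00318) and Ceacam1 with 12.4, 11.2 and 8.58 RPKM in PCT, against 3.44, 4.75 and 4.30 RPKM in WCN (log2 fold change of 1.26 with an SE of 0.35, adjusted p = 0.00926).

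Genes of ion and water transport were lower too, with 13 of 23 genes lower and 1 higher. Sgk1, a kinase that aldosterone induces, had 9.31, 5.29 and 14.8 RPKM in PCT, against 61.5, 62.8 and 81.03 RPKM in WCN (log2 fold change of -2.84 with an SE of 0.67, adjusted p = 0.00383). Cftr, the chloride channel of crypt cells, had 13.9, 7.77 and 8.36 RPKM in PCT, against 40.2, 24.4 and 41.6 RPKM in WCN (log2 fold change of -1.78 with an SE of 0.36, adjusted p = 0.00118). Every PCT value was below every WCN value for both. Best2, a bicarbonate channel of goblet cells, had 1.62, 1.26 and 7.90 RPKM in PCT, against 14.8, 42.9 and 9.78 RPKM in WCN (log2 fold change of -2.59 with an SE of 0.70, adjusted p = 0.009). Scnn1b, a subunit of the sodium channel ENaC, fell by 2.33 on the log2 scale (not called without PCT 1, adjusted p = 0.0611). The single gene that rose, chosen after its values were seen, was Slc12a2, the sodium, potassium and chloride cotransporter of crypt cells, with 421, 472 and 344 RPKM in PCT, against 186, 197 and 192 RPKM in WCN (log2 fold change of 1.09 with an SE of 0.17, adjusted p = 0.000188).

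Goblet cell genes fell as a group, 15 of 16 tested and none higher, with a median of -2.36. Clca1, a secreted protease of the mucus layer, had 12.2, 42.5 and 161 RPKM in PCT, against 2331, 1057 and 2691 RPKM in WCN (log2 fold change of -5.40 with an SE of 0.73, adjusted p = 7.51e-05). Zg16, a lectin that binds bacteria in mucus, had 57.99, 25.99 and 231 RPKM in PCT, against 2584, 516 and 3685 RPKM in WCN (log2 fold change of -4.58 with an SE of 1.01, adjusted p = 0.00275). Fcgbp, which cross-links mucin, had 20.2, 23.1 and 64.4 RPKM in PCT, against 451, 213 and 572 RPKM in WCN (log2 fold change of -3.59 with an SE of 0.49, adjusted p = 7.75e-05). In these genes WCN 2 was the lowest WCN library and PCT 3 the highest tumor, and the groups still lay apart. Rep15 and Capn9 also fell, with log2 fold changes of -5.10 and -3.48. Tff3, the trefoil peptide of goblet cells, had 462, 255 and 814 RPKM in PCT, against 1412, 2445 and 2309 RPKM in WCN (log2 fold change of -2.12 with an SE of 0.51, adjusted p = 0.00399). The member not called was Spink4, with 28.7, 5.42 and 40.1 RPKM in PCT, against 57.5, 12.9 and 61.1 RPKM in WCN (adjusted p = 0.532). Left out in turn, WCN 1, WCN 2 and WCN 3 gave 13, 14 and 13 lower members, and PCT 1, PCT 2 and PCT 3 gave 13, 12 and 15.

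Hormone genes were lower too, 8 of 17 tested, with 1 higher, though the number lower was 5 without WCN 1 and 4 without WCN 3. Sst, somatostatin of D cells, had 0, 0 and 0.12 RPKM in PCT, against 11.5, 4.84 and 22.8 RPKM in WCN (log2 fold change of -4.41 with an SE of 0.62, adjusted p = 8e-05). Pyy, peptide YY of L cells, had 28.6, 34.4 and 45.04 RPKM in PCT, against 263, 123 and 265 RPKM in WCN (log2 fold change of -2.52 with an SE of 0.52, adjusted p = 0.00158). Scg2, a protein of hormone granules, had 0.81, 2.07 and 1.05 RPKM in PCT, against 14.2, 5.87 and 13.7 RPKM in WCN (log2 fold change of -2.66 with an SE of 0.53, adjusted p = 0.00113). All tumors lay below all WCN libraries for these 3 genes. Chga, the general marker of hormone cells, had overlapping values of 18.3, 3.01 and 2.57 RPKM in PCT, against 22.9, 11.8 and 106 RPKM in WCN (log2 fold change of -2.42 with an SE of 0.81, adjusted p = 0.0281, not called without PCT 2, PCT 3 or WCN 3 left out alone, adjusted p 0.0985 to 0.145, log2 fold change -1.53 without WCN 3). Gcg, the precursor of glucagon-like peptides, fell by 2.18 on the log2 scale (not called without PCT 1, PCT 2, WCN 1 or WCN 3 left out alone, adjusted p 0.0659 to 0.124). Tac1, which encodes substance P and is also a gene of enteric neurons, was the member that rose, with 2.53, 8.03 and 17.2 RPKM in PCT, against 0.97, 0 and 0.31 RPKM in WCN (log2 fold change of 3.19 with an SE of 0.82, adjusted p = 0.00645).

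Tuft cell genes fell in 7 of 10 tested and rose in none. Trpm5, the taste-type cation channel of tuft cells, had 2.05, 2.79 and 4.19 RPKM in PCT, against 18.2, 7.78 and 21.9 RPKM in WCN (log2 fold change of -2.15 with an SE of 0.42, adjusted p = 0.000995). Il17rb, the receptor for IL-25, had 0.56, 1.57 and 0.68 RPKM in PCT, against 5.67, 3.00 and 6.63 RPKM in WCN (log2 fold change of -1.96 with an SE of 0.38, adjusted p = 0.000979). PCT lay below WCN in every library for both genes. Pou2f3, the factor that specifies tuft cells, had 0.96, 1.97 and 1.72 RPKM in PCT, against 3.50, 2.22 and 4.07 RPKM in WCN and did not pass the test (adjusted p = 0.103).

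Of 23 transcription factors of differentiation, 6 fell and 1 rose (0 without PCT 2, WCN 1 or WCN 3 left out alone, or with either other scaling). Nr1h4, the bile acid receptor FXR, had 6.23, 6.07 and 7.89 RPKM in PCT, against 36.3, 28.7 and 39.8 RPKM in WCN (log2 fold change of -2.29 with an SE of 0.41, adjusted p = 0.000591). Klf4, a zinc finger factor of surface epithelium and goblet cells, had 21.5, 15.6 and 31.02 RPKM in PCT, against 81.96, 72.9 and 71.3 RPKM in WCN (log2 fold change of -1.76 with an SE of 0.21, adjusted p = 2.08e-05). Vdr, the vitamin D receptor, had 34.7, 28.2 and 44.02 RPKM in PCT, against 96.04, 91.7 and 116 RPKM in WCN (log2 fold change of -1.51 with an SE of 0.36, adjusted p = 0.00396). For these 3 every tumor was below every WCN library. Cdx2, the intestinal identity factor, had 169.6, 66.8 and 81.5 RPKM in PCT, against 413, 118 and 499.8 RPKM in WCN, and with WCN 2 close to the tumors it was not called (adjusted p = 0.0983). Hes1 and Elf3 were at log2 fold changes of -0.37 and 0.07 and were not called.

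**Figure D4:**
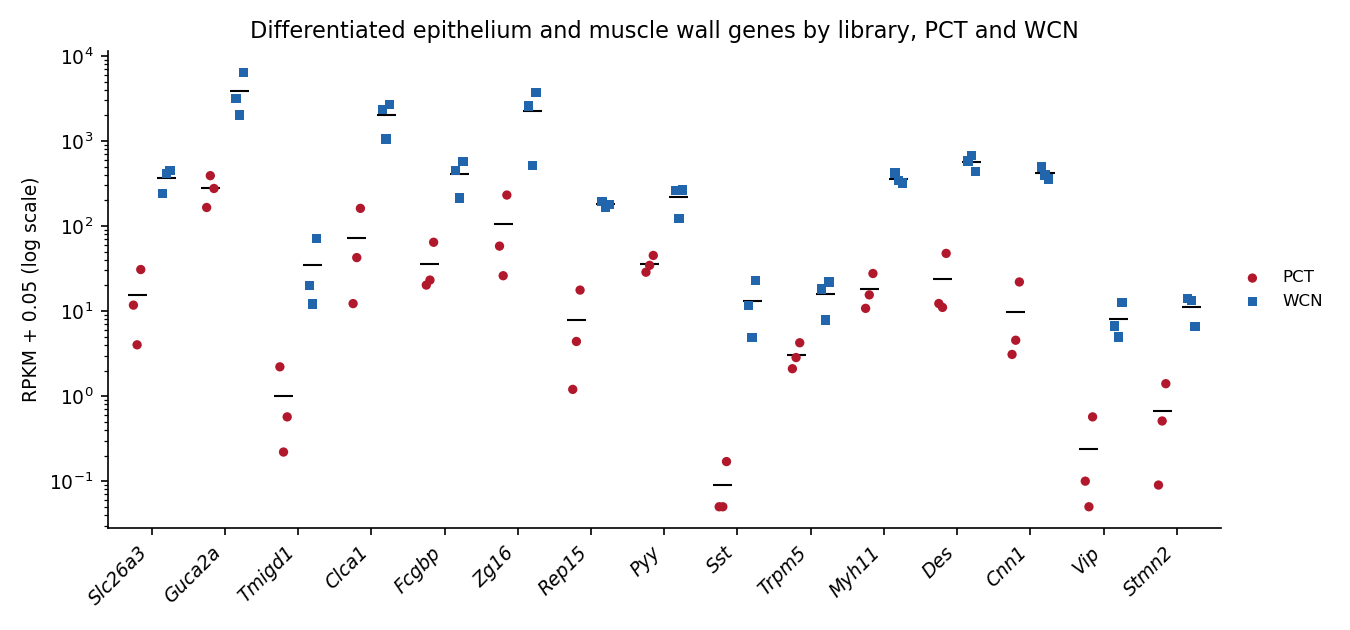
RPKM plus 0.05 on a log axis for 15 genes of differentiated epithelium, enteric neurons and smooth muscle in 3 PCT and 3 WCN libraries. Points are libraries and lines are means. In each of these genes, which were picked for the figure, all PCT points lie below all WCN points. Sst and Vip are at 0 in at least 1 tumor. Over the whole lists 12 of 21 colonocyte and 7 of 17 enteroendocrine genes lay below in this way, and members such as Chga overlapped.

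Junction genes went both ways, 6 of 22 higher (3 without PCT 1 or with median-of-ratios scaling) and 6 lower. Each share was 27.27%, against 24.9% higher and 14.5% lower over all genes. Cldn8, a claudin that seals the distal colon against sodium, had 18.6, 39.3 and 77.3 RPKM in PCT, against 182, 90.9 and 135 RPKM in WCN (log2 fold change of -1.75 with an SE of 0.46, adjusted p = 0.00712). Cldn15, a claudin that lets sodium pass, had 24.4, 3.03 and 9.73 RPKM in PCT, against 99.7, 31.4 and 139.6 RPKM in WCN (log2 fold change of -2.99 with an SE of 0.82, adjusted p = 0.0101). F11r, the junctional adhesion molecule A, had 36.1, 43.3 and 33.9 RPKM in PCT, against 13.3, 25.1 and 20.9 RPKM in WCN (log2 fold change of 0.96 with an SE of 0.22, adjusted p = 0.00295). Each of these had groups that lay apart. Cldn3 and Cldn4 were not called (log2 fold changes -0.46 and 0.62). Itga6, an integrin of the basal surface, had 288, 215 and 251 RPKM in PCT, against 91.3, 158 and 70.4 RPKM in WCN (log2 fold change of 1.31 with an SE of 0.24, adjusted p = 0.000656).

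Ribosome biogenesis, the building of ribosomes in the nucleolus, had 25 of 33 genes higher and none lower, with a median of 0.80 (23 and 21 higher with the 2 other scalings). Nolc1, a nucleolar chaperone, had 38.4, 26.3 and 34.1 RPKM in PCT, against 9.94, 13.2 and 11.9 RPKM in WCN (log2 fold change of 1.45 with an SE of 0.21, adjusted p = 0.000112). Ncl, nucleolin, had 134, 96.9 and 119 RPKM in PCT, against 50.1, 58.98 and 40.4 RPKM in WCN (log2 fold change of 1.22 with an SE of 0.21, adjusted p = 0.000343). Polr1a, the large subunit of RNA polymerase I, had 14.6, 15.04 and 14.2 RPKM in PCT, against 4.83, 7.01 and 5.39 RPKM in WCN (log2 fold change of 1.29 with an SE of 0.20, adjusted p = 0.000197). The tumors were above WCN in all libraries for these. Myc, which drives this program, had 131, 123 and 103 RPKM in PCT, against 30.1, 29.8 and 22.3 RPKM in WCN (log2 fold change of 2.10 with an SE of 0.19, adjusted p = 3.63e-06). Over the whole Myc network 6 of 18 rose and 4 fell (2 without WCN 3), and the median of 0.17 changed sign with quantile normalization (-0.01). Mlxipl, the sugar-sensing factor ChREBP, fell, with 15.01, 17.1 and 19.9 RPKM in PCT, against 71.7, 46.99 and 52.6 RPKM in WCN (log2 fold change of -1.68 with an SE of 0.33, adjusted p = 0.00112).

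DNA replication genes were higher in 12 of 39 tested and lower in none, against 24.9% higher over all genes, with a median of 0.78. This number was 6 without PCT 1, PCT 3 or WCN 3 left out alone, 19 without PCT 2 or with only the compared libraries, and 7 with quantile normalization. Mcm3, a subunit of the replicative helicase, had 37.2, 25.5 and 33.1 RPKM in PCT, against 12.3, 9.39 and 9.67 RPKM in WCN (log2 fold change of 1.56 with an SE of 0.41, adjusted p = 0.00755). Mcm7, of the same helicase, had 53.9, 42.2 and 50.9 RPKM in PCT, against 26.5, 21.8 and 22.4 RPKM in WCN (log2 fold change of 1.04 with an SE of 0.28, adjusted p = 0.00894). Pcna, the sliding clamp, had 196, 106 and 198 RPKM in PCT, against 134, 88.95 and 98.6 RPKM in WCN and was not called (adjusted p = 0.146). Of 36 genes of mitosis 4 rose (11.11%), below the 24.9% over all genes, and none fell. Cdk1, Top2a and Plk1 were not called, at log2 fold changes of 0.52, 0.82 and -0.02. In PST against WSN 17 of the 36 were higher, against 24.2% higher over all genes there. Kif23, a kinesin of cell cleavage, had 63.1, 32.05 and 43.99 RPKM in PCT, against 21.8, 18.8 and 16.3 RPKM in WCN (log2 fold change of 1.22 with an SE of 0.29, adjusted p = 0.00342). Cyclins, their kinases and inhibitors were higher in 10 of 25 (6 without PCT 1 or WCN 2) and lower in 1. With median-of-ratios scaling 7 were higher and 4 lower, and with quantile normalization 6 and 3. Ccnd2, cyclin D2, had 202, 344 and 251 RPKM in PCT, against 61.2, 129.7 and 28.6 RPKM in WCN (log2 fold change of 2.08 with an SE of 0.44, adjusted p = 0.00178). Cdkn1a, the inhibitor p21, had 285, 309 and 244 RPKM in PCT, against 136, 119.7 and 133 RPKM in WCN (log2 fold change of 1.10 with an SE of 0.21, adjusted p = 0.000892). Cdk4 rose by 0.95.

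Synthesis of nucleotides and the one-carbon units they need rose in 12 of 26 tested genes and fell in none. Shmt1 and Shmt2, which take a carbon from serine, rose by 1.69 and 0.97. Atic, the last enzyme of purine synthesis, had 13.9, 13.03 and 11.6 RPKM in PCT, against 2.85, 4.77 and 4.02 RPKM in WCN (log2 fold change of 1.63 with an SE of 0.28, adjusted p = 0.000384). Ctps1, which makes CTP, had 14.2, 11.8 and 14.7 RPKM in PCT, against 5.81, 6.27 and 6.14 RPKM in WCN (log2 fold change of 1.09 with an SE of 0.25, adjusted p = 0.00292). In both genes all tumors were above all WCN libraries. Amd1 and Sat1 of polyamine metabolism were not called (log2 fold changes 0.36 and 0.38).

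Butyrate use and fatty acid oxidation, the main fuel route of colonocytes, had 17 of 28 genes lower and none higher (1 higher without WCN 2). Slc16a1, the transporter MCT1 that takes up butyrate, had 79.7, 67.8 and 104 RPKM in PCT, against 306, 238 and 253 RPKM in WCN (log2 fold change of -1.67 with an SE of 0.28, adjusted p = 0.000278). Acads, the dehydrogenase for short chains, had 103, 86.4 and 85.01 RPKM in PCT, against 258, 202 and 298 RPKM in WCN (log2 fold change of -1.45 with an SE of 0.19, adjusted p = 4.65e-05). The highest PCT value was below the lowest WCN value in both, with WCN 2 the lowest WCN library. Slc5a8, another butyrate carrier, overlapped between groups at 13.7, 24.9 and 65.7 RPKM in PCT, against 69.5, 68.7 and 58.4 RPKM in WCN (log2 fold change of -1.19 with an SE of 0.40, adjusted p = 0.0281, not called without PCT 1, PCT 2, WCN 1 or WCN 2 left out alone, adjusted p 0.0638 to 0.16, log2 fold change -0.68 without PCT 1 and -1.80 without PCT 3). The TCA cycle and respiratory chain had 15 of 35 genes lower and none higher, with 24 and 11 lower under median-of-ratios scaling and quantile normalization and 7 without PCT 2. These falls were small, with a list median of -0.40. Cox5b, a subunit of complex IV, had 230.0, 218 and 263 RPKM in PCT, against 456, 442 and 397 RPKM in WCN (log2 fold change of -0.86 with an SE of 0.15, adjusted p = 0.000316).

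Glycolysis and hypoxia genes did not move as a group, 6 of 27 higher (22.22%) and 3 lower (11.11%, 5 genes without WCN 2), near the 24.9% and 14.5% over all genes. Slc16a3, the transporter MCT4 that exports lactate, had 197, 127 and 136 RPKM in PCT, against 8.46, 21.3 and 15.8 RPKM in WCN (log2 fold change of 3.36 with an SE of 0.50, adjusted p = 0.000151). Slc16a1, which carries the same kind of acid, fell by 1.67 on the log2 scale, as given with the butyrate genes. Pfkp, a phosphofructokinase, had 219.7, 208 and 193 RPKM in PCT, against 49.96, 65.8 and 61.1 RPKM in WCN (log2 fold change of 1.81 with an SE of 0.17, adjusted p = 3.63e-06). Every tumor exceeded every WCN library in Slc16a3 and Pfkp. Slc2a1 and Ndrg1, which hypoxia can induce, were not called, at log2 fold changes of 0.38 and -0.25, and Car9, another such gene, fell by 1.56 (not called without PCT 2, adjusted p = 0.0633). Of 10 genes of gluconeogenesis 3 fell (5 without WCN 2, 6 with median-of-ratios scaling or with only the compared libraries, 5 with quantile normalization) and 1 rose. Pck1, the rate-limiting enzyme, had 6.73, 5.29 and 16.5 RPKM in PCT, against 403, 232 and 499 RPKM in WCN (log2 fold change of -5.34 with an SE of 0.49, adjusted p = 4.1e-06). Fbp1, a later enzyme of the same route, had 0.43, 0.74 and 0.97 RPKM in PCT, against 7.34, 7.63 and 7.40 RPKM in WCN (log2 fold change of -2.74 with an SE of 0.27, adjusted p = 4.84e-06).

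Sterol and fatty acid synthesis was higher in 15 of 28 genes and lower in none, and in 9 without PCT 3 and 7 without WCN 3 (1 lower without WCN 2). With median-of-ratios scaling 9 were higher and 1 lower. Scd2, a fatty acid desaturase, had 585, 395 and 596 RPKM in PCT, against 152, 89.1 and 58.4 RPKM in WCN (log2 fold change of 2.48 with an SE of 0.44, adjusted p = 0.000513). Fasn, fatty acid synthase, had 78.98, 64.2 and 79.3 RPKM in PCT, against 37.3, 35.1 and 27.4 RPKM in WCN (log2 fold change of 1.15 with an SE of 0.26, adjusted p = 0.00301). Groups lay apart in both genes. PCN values of Scd2 were 272, 259 and 150.2 RPKM, below every tumor and, apart from PCN 3, above every WCN library.

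In eicosanoid metabolism 7 of 25 genes rose (28.0%, near the 24.9% over all genes) and 9 fell (36.0%, against 14.5%). Ptgs2, the inducible cyclooxygenase COX-2, had 24.4, 4.52 and 28.6 RPKM in PCT, against 5.81, 1.60 and 2.09 RPKM in WCN with overlap (log2 fold change of 2.24 with an SE of 0.67, adjusted p = 0.0157, not called without PCT 1, PCT 3, WCN 2 or WCN 3 left out alone, adjusted p 0.055 to 0.073). Hpgd, which breaks prostaglandins down, had 39.7, 34.5 and 85.3 RPKM in PCT, against 249, 259.9 and 509 RPKM in WCN (log2 fold change of -2.70 with an SE of 0.42, adjusted p = 0.000188). Ptgis, prostacyclin synthase, had 0.05, 0 and 0.28 RPKM in PCT, against 7.19, 3.10 and 6.86 RPKM in WCN (log2 fold change of -3.30 with an SE of 0.49, adjusted p = 0.000128). Hpgd and Ptgis were lower in every tumor than in any WCN library. Of the lipoxygenases, Alox12 had 31.7, 65.5 and 19.6 RPKM in PCT, against 1.18, 1.22 and 1.44 RPKM in WCN (log2 fold change of 4.30 with an SE of 0.46, adjusted p = 9.49e-06) and Alox5 had 1.10, 2.46 and 3.74 RPKM in PCT, against 18.6, 11.2 and 15.7 RPKM in WCN (log2 fold change of -2.50 with an SE of 0.29, adjusted p = 1.67e-05), so that the first rose and the second fell in all tumors.

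Genes of retinoid and xenobiotic metabolism were split, 9 of 33 higher (27.27%, near the 24.9% over all genes) and 10 lower (30.3%, against 14.5%). Stra6, a receptor that takes up retinol, had 7.30, 41.4 and 8.43 RPKM in PCT, against 0.19, 0.13 and 0.32 RPKM in WCN (log2 fold change of 4.33 with an SE of 0.71, adjusted p = 0.000264). Aldh1a2, another retinaldehyde dehydrogenase, had 13.9, 12.3 and 7.08 RPKM in PCT, against 3.81, 1.73 and 2.95 RPKM in WCN (log2 fold change of 1.80 with an SE of 0.38, adjusted p = 0.00181). Sult1a1, a sulfotransferase that conjugates drugs and phenols, had 1.20, 1.89 and 1.22 RPKM in PCT, against 9.46, 14.1 and 18.6 RPKM in WCN (log2 fold change of -2.88 with an SE of 0.26, adjusted p = 2.75e-06). Gstm1, a glutathione transferase, had 5.79, 8.37 and 8.38 RPKM in PCT, against 41.3, 45.5 and 33.4 RPKM in WCN (log2 fold change of -2.35 with an SE of 0.33, adjusted p = 7.68e-05). Each of the 4 genes had groups that lay apart. Antioxidant genes of the NRF2 type rose in 12 of 26 and fell in 4 (1 to 2 without PCT 1, PCT 3, WCN 2 or WCN 3 left out alone). Hmox1, heme oxygenase, had 55.1, 43.9 and 29.5 RPKM in PCT, against 7.75, 8.67 and 4.23 RPKM in WCN (log2 fold change of 2.57 with an SE of 0.38, adjusted p = 0.000119). Txnrd1, thioredoxin reductase, had 417, 213 and 324 RPKM in PCT, against 90.9, 105 and 97.9 RPKM in WCN (log2 fold change of 1.64 with an SE of 0.24, adjusted p = 0.000101). Nfe2l2, which encodes NRF2, was not called (log2 fold change -0.43).

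Sialic acid and mucin glycan genes moved both ways, with 5 of 29 higher (17.24%, 8 genes without PCT 2) and 12 lower (41.38%, 7 genes without WCN 1). Over all genes 24.9% were higher and 14.5% lower. Beside Cmah, St6galnac1, which adds sialic acid to mucin O-glycans, had 28.6, 50.6 and 89.8 RPKM in PCT, against 399.9, 405 and 255 RPKM in WCN (log2 fold change of -2.76 with an SE of 0.30, adjusted p = 1.38e-05). St3gal4, a sialyltransferase for terminal galactose, had 86.4, 53.03 and 65.8 RPKM in PCT, against 6.97, 8.87 and 13.4 RPKM in WCN (log2 fold change of 2.77 with an SE of 0.36, adjusted p = 4.5e-05). St6gal1, which caps N-glycans, had 13.9, 20.99 and 12.6 RPKM in PCT, against 2.67, 3.19 and 2.69 RPKM in WCN (log2 fold change of 2.26 with an SE of 0.33, adjusted p = 0.000114). The first fell and the other 2 rose in every tumor. Cmas and Nans, which make and activate sialic acid, were not called (log2 fold changes 0.21 and -0.33).

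Of 29 metal transport genes 8 were higher (27.59%) and 5 lower (17.24%), near the 24.9% and 14.5% over all genes, and 8 were lower with median-of-ratios scaling. Slc39a10, a zinc importer, had 33.1, 49.9 and 24.5 RPKM in PCT, against 3.52, 2.72 and 2.67 RPKM in WCN (log2 fold change of 3.34 with an SE of 0.34, adjusted p = 7.12e-06). Slc11a2, the iron importer DMT1, had 55.8, 122 and 59.3 RPKM in PCT, against 14.4, 20.1 and 9.47 RPKM in WCN (log2 fold change of 2.36 with an SE of 0.54, adjusted p = 0.00332). Fth1, the heavy chain of the iron store ferritin, had 24.4, 17.9 and 25.4 RPKM in PCT, against 46.5, 45.1 and 52.4 RPKM in WCN (log2 fold change of -1.08 with an SE of 0.21, adjusted p = 0.000914). The mRNAs of the importers were above and that of Fth1 below WCN in every tumor. Slc30a10, a manganese exporter, had 0.03, 0.24 and 0.10 RPKM in PCT, against 0.33, 0.99 and 2.55 RPKM in WCN (log2 fold change of -1.33 with an SE of 0.47, adjusted p = 0.0328, not called without PCT 1, PCT 3, WCN 2 or WCN 3 left out alone, adjusted p 0.0599 to 0.179, log2 fold change -0.85 without WCN 3).

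Immune genes rose for some cell types and fell for others. Neutrophil genes were higher in 9 of 13 tested and lower in none, with a median of 1.81. The filter on low values can keep genes near 0 in WCN through their tumor values alone. With no such filter 9 of 20 were higher and none lower, with a median of 1.15. S100a8, the partner of S100a9, had 187, 224 and 206 RPKM in PCT, against 7.64, 13.98 and 1.98 RPKM in WCN (log2 fold change of 4.95 with an SE of 0.74, adjusted p = 0.000161). Mmp9, gelatinase B of neutrophil granules and other cells, had 28.1, 31.8 and 9.28 RPKM in PCT, against 0, 0 and 0.19 RPKM in WCN (log2 fold change of 5.22 with an SE of 0.56, adjusted p = 1.03e-05). Csf3r and Cxcr2, receptors typical of neutrophils, were picked out after their values were seen. Csf3r had 4.42, 4.29 and 3.05 RPKM in PCT, against 0.12, 0.02 and 0.06 RPKM in WCN and Cxcr2 had 3.85, 3.18 and 3.01 RPKM in PCT, against 0, 0.05 and 0 RPKM in WCN, low levels in the tumors and at or near 0 in WCN, with log2 fold changes of 2.95 and 2.89. Il1r2 rose by 1.65 (not called without PCT 1 or WCN 2 left out alone, adjusted p 0.0509 to 0.074). Itgam and Camp were not called (log2 fold changes 0.83 and 0.54).

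A list of CXC chemokine, IL-1 family and NF-κB genes had 22 of 39 tested members higher and 6 lower. Not all of its members draw neutrophils, and Cxcl14, Cxcl16, Nfkbia and Birc3 were not called. Chemokines that draw neutrophils and cytokines of the IL-1 family were among those that rose. Cxcl6 had 266, 188 and 174 RPKM in PCT, against 0.32, 0.53 and 0 RPKM in WCN (log2 fold change of 8.10 with an SE of 0.78, adjusted p = 6.04e-06). Cxcl1 had 52.7, 31.1 and 82.4 RPKM in PCT, against 2.92, 0.30 and 0.16 RPKM in WCN (log2 fold change of 5.41 with an SE of 0.53, adjusted p = 6.04e-06). Il1b had 22.9, 21.2 and 42.6 RPKM in PCT, against 4.54, 1.48 and 4.85 RPKM in WCN (log2 fold change of 2.89 with an SE of 0.39, adjusted p = 5.35e-05). Tumors were above WCN in every library for all 3, and Cxcl6 was above Cxcl1 in each of them. Il1rn, the natural antagonist of IL-1, had 124, 169.9 and 116 RPKM in PCT, against 4.58, 18.5 and 6.28 RPKM in WCN (log2 fold change of 3.96 with an SE of 0.43, adjusted p = 1.27e-05). Il1a, Cxcl2 and Cxcl3 had log2 fold changes of 4.98, 3.70 and 3.63. Bcl3, an atypical IκB protein, had 155, 94.6 and 146 RPKM in PCT, against 28.6, 38.95 and 39.2 RPKM in WCN (log2 fold change of 1.86 with an SE of 0.19, adjusted p = 6.04e-06). Ccl21, which guides cells into lymph vessels, fell, with 9.95, 22.8 and 16.4 RPKM in PCT, against 77.8, 65.5 and 89.5 RPKM in WCN (log2 fold change of -2.27 with an SE of 0.34, adjusted p = 0.00014). Cxcl12, chosen after its values were seen, had 1.65, 3.18 and 4.60 RPKM in PCT, against 31.6, 30.4 and 29.5 RPKM in WCN (log2 fold change of -3.18 with an SE of 0.30, adjusted p = 3.63e-06).

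T cell genes were higher in 7 of 19 tested (36.84%, against 24.9% over all genes) and lower in 1 (0 without PCT 2 or WCN 3 left out alone). With no filter on low values 6 of 24 were higher and 1 lower, so this share depends on the filter. Icos, a costimulatory receptor, had 6.26, 7.82 and 8.43 RPKM in PCT, against 1.33, 0.58 and 0.81 RPKM in WCN (log2 fold change of 2.53 with an SE of 0.24, adjusted p = 3.74e-06). Cd3e, part of the T cell receptor complex, had 5.35, 8.38 and 5.49 RPKM in PCT, against 2.06, 0.54 and 3.10 RPKM in WCN (log2 fold change of 1.67 with an SE of 0.39, adjusted p = 0.00346). Cd4 and Gzma were not called (log2 fold changes 0.44 and -0.56). B cell and plasma cell genes were called in 3 of 15, against 39.4% called over all genes. Of these, Fcer2 rose, with 8.50, 10.7 and 6.77 RPKM in PCT, against 1.73, 1.00 and 0.73 RPKM in WCN (log2 fold change of 2.49 with an SE of 0.43, adjusted p = 0.000379), Sdc1 rose by 0.69, and Xbp1 fell by 0.59 (not called without PCT 1, PCT 3, WCN 1 or WCN 3 left out alone, adjusted p 0.0509 to 0.0584), while Sdc1 and Xbp1 are also made by epithelium. Macrophage and dendritic genes were higher in 8 of 24 (33.33%, against 24.9% over all genes) and lower in 1 (0 without WCN 1). Arg1, arginase, had 55.2, 53.9 and 39.5 RPKM in PCT, against 3.62, 4.74 and 1.68 RPKM in WCN (log2 fold change of 3.78 with an SE of 0.43, adjusted p = 1.68e-05). Mmp12, macrophage elastase, had 42.8, 37.7 and 35.7 RPKM in PCT, against 0.90, 0.35 and 1.13 RPKM in WCN (log2 fold change of 4.97 with an SE of 0.57, adjusted p = 1.94e-05). Cd14 and Cd74 were not called (log2 fold changes 0.35 and 0.08). Mast cell genes were lower in 4 of 9 (44.44%, against 14.5% over all genes) and higher in none. Without the filter 5 of 16 were lower and none higher. Cpa3, a mast cell protease, had 0.54, 0.21 and 0.65 RPKM in PCT, against 13.4, 2.86 and 8.14 RPKM in WCN (log2 fold change of -2.96 with an SE of 0.45, adjusted p = 0.000147). Interferon-driven genes were higher in 6 of 28 (21.43%), against 24.9% over all genes, and Gbp2 had 35.2, 45.5 and 18.5 RPKM in PCT, against 8.43, 6.19 and 8.55 RPKM in WCN (log2 fold change of 1.95 with an SE of 0.32, adjusted p = 0.000259).

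Smooth muscle genes fell in 24 of 29 tested, with 1 higher and a median of -2.997. Their summed level was 1183 to 1370.0 RPKM in PCT, 2467 to 5145 RPKM in PCN and 6243 to 7421 RPKM in WCN. Myh11, smooth muscle myosin, had 10.7, 15.4 and 27.6 RPKM in PCT, against 420.1, 339.9 and 320.0 RPKM in WCN (log2 fold change of -4.39 with an SE of 0.46, adjusted p = 9.49e-06). Actg2, the actin of gut muscle, had 17.6, 16.8 and 50.3 RPKM in PCT, against 1091, 913 and 803 RPKM in WCN (log2 fold change of -5.21 with an SE of 0.59, adjusted p = 1.79e-05). Myl9, a myosin light chain, had 30.96, 46.3 and 61.5 RPKM in PCT, against 799.5, 814 and 613 RPKM in WCN (log2 fold change of -4.03 with an SE of 0.40, adjusted p = 6.23e-06). PCT 3 had the most muscle mRNA of the tumors for all 3, and no tumor came near WCN. Tpm2, Fhl1 and Hspb8 also fell, with log2 fold changes of -4.07, -3.14 and -2.22. Tpm1, Smtn, Myocd and Ckb were not called, at log2 fold changes of -0.10, -0.41, -0.79 and -0.13. The single gene that rose, Actn1, a non-muscle actinin chosen after its values were seen, had 79.2, 61.8 and 50.2 RPKM in PCT, against 34.6, 34.4 and 35.7 RPKM in WCN (log2 fold change of 0.84 with an SE of 0.21, adjusted p = 0.00504). The study calls the WT samples mucosa, and muscle of the mucosa or of the outer wall can give these mRNAs, so how much wall each piece held was not tested.

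Genes of enteric neurons, glia and pacemaker cells fell in 10 of 18 (6 without PCT 1) and rose in 1. Vip, a neuropeptide that relaxes the gut, had 0.05, 0 and 0.52 RPKM in PCT, against 6.61, 4.89 and 12.7 RPKM in WCN (log2 fold change of -3.60 with an SE of 0.37, adjusted p = 6.46e-06). Stmn2, a protein of growing axons, had 0.04, 0.46 and 1.35 RPKM in PCT, against 13.98, 13.2 and 6.53 RPKM in WCN (log2 fold change of -3.50 with an SE of 0.47, adjusted p = 4.99e-05). Ano1, the chloride channel of pacemaker cells, had 18.2, 27.03 and 38.3 RPKM in PCT, against 64.6, 85.3 and 38.97 RPKM in WCN (log2 fold change of -1.16 with an SE of 0.29, adjusted p = 0.00548). All tumors were below all WCN libraries for these. Uchl1 and Tubb3 were not called (log2 fold changes -0.25 and -0.93). Endothelial and pericyte genes were mixed, 5 of 23 higher (3 without PCT 1, PCT 2, WCN 1 or WCN 2 left out alone, or with either other scaling) and 7 lower (4 without PCT 1). That is 21.74% and 30.43%, against 24.9% and 14.5% over all genes. Vwf, von Willebrand factor of vessels, had 8.58, 7.54 and 6.59 RPKM in PCT, against 2.86, 3.21 and 3.24 RPKM in WCN (log2 fold change of 1.16 with an SE of 0.21, adjusted p = 0.000616). Plvap, a protein of fenestrated vessels, had 36.1, 49.5 and 47.6 RPKM in PCT, against 98.7, 79.1 and 102 RPKM in WCN (log2 fold change of -1.07 with an SE of 0.22, adjusted p = 0.00132).

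Fibroblast genes did not move together, 6 of 27 higher (22.22%, 3 without PCT 3) and 7 lower (25.93%), against 24.9% and 14.5% over all genes. Their median of 0.13 was -0.01 with median-of-ratios scaling. Matrix genes of common fibroblasts, Dcn, Lum, Sparc and Vim, were not called, with log2 fold changes of 0.13, 0.53, -0.12 and -0.61. Grem1, an inhibitor of BMP signals from cells below the crypt, had 7.35, 5.69 and 12.5 RPKM in PCT, against 34.5, 58.7 and 28.8 RPKM in WCN (log2 fold change of -2.19 with an SE of 0.40, adjusted p = 0.000638). Dpt, dermatopontin, had 10.7, 11.6 and 17.1 RPKM in PCT, against 146, 106 and 108 RPKM in WCN (log2 fold change of -3.15 with an SE of 0.22, adjusted p = 4.75e-07). Both lay below WCN in every tumor. Collagen genes were called in 5 of 14, against 39.4% called over all genes. Col1a1 and Col3a1 were not called (log2 fold changes 0.42 and -0.58), whereas Col17a1, a collagen of hemidesmosomes in epithelium, had 8.74, 12.2 and 8.22 RPKM in PCT, against 1.51, 1.27 and 1.59 RPKM in WCN (log2 fold change of 2.37 with an SE of 0.50, adjusted p = 0.0016).

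Proteases of the matrix and of the plasminogen system were higher in 13 of 26 tested and lower in 1 (0 without PCT 1 or WCN 3, 2 without PCT 2 or with either other scaling). Plat, tissue plasminogen activator, had 185, 202 and 133 RPKM in PCT, against 18.9, 21.3 and 18.04 RPKM in WCN (log2 fold change of 3.10 with an SE of 0.39, adjusted p = 3.37e-05). Mmp13, a collagenase, had 70.3, 4.21 and 28.1 RPKM in PCT, against 0.33, 0.29 and 0.29 RPKM in WCN (log2 fold change of 4.72 with an SE of 0.69, adjusted p = 0.000109). The range among tumors was wide for Mmp13, yet the lowest tumor was above all WCN libraries, and for Plat too. Timp1, Timp2, Mmp2 and Plau were not called, with log2 fold changes of 0.35, -0.09, 0.29 and 0.49.

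A list of EGF ligands, their receptors and genes that respond to them had 4 of 21 higher (19.05%) and 1 lower (2 without WCN 2). Over all genes 24.9% were higher and 14.5% lower. The 4 were the ligand gene Epgn, the receptor gene Egfr, and Dusp4 and Phlda1, which encode neither ligand nor receptor. Epgn, an EGF receptor ligand, had 8.47, 6.44 and 8.40 RPKM in PCT, against 0.69, 2.10 and 0.76 RPKM in WCN (log2 fold change of 2.38 with an SE of 0.41, adjusted p = 0.000388). Dusp4, a phosphatase that ERK signaling induces, had 24.9, 14.7 and 19.8 RPKM in PCT, against 1.46, 0.82 and 0.93 RPKM in WCN (log2 fold change of 3.68 with an SE of 0.52, adjusted p = 9.02e-05). Egfr itself had 9.14, 8.35 and 5.38 RPKM in PCT, against 2.30, 2.32 and 2.25 RPKM in WCN (log2 fold change of 1.51 with an SE of 0.22, adjusted p = 0.000114). In the TGF-β, BMP and activin family 10 of 37 rose (27.03%, near the 24.9% over all genes) and 9 fell (24.32%). The list median of 0.12 changed sign with median-of-ratios scaling (-0.02) and quantile normalization (-0.05). Inhba and Inhbb, subunits of activin, rose by 2.76 and 2.25, and Inhba had 6.80, 5.71 and 7.58 RPKM in PCT, against 0.56, 0.62 and 0.49 RPKM in WCN (adjusted p = 6.75e-06). Igfbp2, which binds IGF, fell, with 0.60, 1.18 and 2.11 RPKM in PCT, against 64.04, 20.02 and 43.9 RPKM in WCN (log2 fold change of -4.52 with an SE of 0.87, adjusted p = 0.001). Of 18 Notch genes 4 rose (22.22%, near the 24.9% over all genes) and none fell (1 fell without PCT 3 or with quantile normalization). Notch1 had 32.2, 44.5 and 30.1 RPKM in PCT, against 12.6, 9.87 and 14.1 RPKM in WCN (log2 fold change of 1.502 with an SE of 0.23, adjusted p = 0.000136). For the 6 genes with values given here the groups lay apart. Fosl1, an AP-1 subunit, had the largest log2 fold change of the immediate early genes, with 30.8, 6.80 and 42.1 RPKM in PCT, against 2.53, 1.99 and 1.94 RPKM in WCN (log2 fold change of 3.02 with an SE of 0.47, adjusted p = 0.000189), while Fos, Junb and Jund were not called (log2 fold changes 0.97, 0.78 and 0.28). Klf7, another transcription factor, had 6.43, 9.21 and 6.33 RPKM in PCT, against 1.81, 1.64 and 1.69 RPKM in WCN (log2 fold change of 1.80 with an SE of 0.21, adjusted p = 1.94e-05). Plcd1, a phospholipase C, had 4.36, 7.79 and 8.28 RPKM in PCT, against 29.1, 42.95 and 47.7 RPKM in WCN (log2 fold change of -2.49 with an SE of 0.22, adjusted p = 2.82e-06). App, the amyloid precursor, was not called, with 206, 254 and 210.1 RPKM in PCT, against 233, 299 and 235 RPKM in WCN (adjusted p = 0.377).

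Normal-looking Pirc colon was set beside these groups for the genes with the largest changes. PCN shares the WCN libraries in a test against WCN and the PCT libraries in a test against the tumors, so values are given without a comparison of the 2 contrasts. Of all genes 0.13% were called in PCN against WCN (0.104% higher, 0.026% lower) and 32.7% in PCT against PCN (3778 calls). That fit does not use the pairing of PCT and PCN within rats. With the replicate number as a block there were 3836 calls, but this block joins same-numbered libraries of different rats and is no paired test. Axin2 was at 13.4, 28.8 and 7.58 RPKM, Lgr5 at 3.11, 7.12 and 4.62 RPKM and Mmp7 at 2.59, 54.5 and 3.62 RPKM in PCN 1, 2 and 3. PCN 2 was the highest of the PCN libraries in each. Defa24 was at 31.3, 342 and 139.9 RPKM and Pla2g2a at 575, 4554 and 765 RPKM, again with PCN 2 nearest the tumors. Slc26a3 was at 323, 105 and 144 RPKM, Clca1 at 1217, 1093 and 1969.8 RPKM and Myh11 at 252, 115 and 212 RPKM, all of them above every tumor. PCN 2 was the lowest PCN library for these 3 genes. Duoxa2 was at 80.5, 68.9 and 59.6 RPKM, above WCN and below PCT in every library. Leaving PCN 2 out, an alternative added after its values were seen, changed the number called in PCN against WCN from 15 to 5.

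The same contrast was then read in other animals, PST against WSN, where no library is shared. Of all genes 43.9% were called there, 24.2% higher and 19.7% lower in PST. Of the PCT against WCN calls 3520 (30.5% of all genes) were called in the same direction, 77.4% of these calls and 69.4% of the PST against WSN calls, and 0 were called in the opposite direction. The sign was the same for 98.6% of the PCT against WCN calls. Across 11544 genes, which are not independent replicates, the log2 fold changes correlated at r = 0.897. A test of the difference between the 2 contrasts called 0 genes in limma (637 at an unadjusted p under 0.05, smallest adjusted p 0.822, and 1 gene called without PCT 3), which does not show that the contrasts are equal. By list, 16 of the 17 called Wnt targets, 13 of 15 goblet cell genes, 25 of 25 smooth muscle genes and 7 of 9 neutrophil genes were called again in the same direction. For ribosome biogenesis this was 23 of 25, for colonocytes 9 of 14 and for the TCA cycle and respiratory chain 9 of 15.

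Single genes with equal direction included Axin2, with 148, 103 and 109 RPKM in PST and 10.4, 9.56 and 7.88 RPKM in WSN (log2 fold change 3.61, adjusted p = 3.88e-06). Clca1 had 173, 60.5 and 37.6 RPKM in PST and 687, 1237 and 1020.2 RPKM in WSN (-3.69, adjusted p = 0.00105). Both matched the direction on the control diet, and neither overlapped between groups. Some control diet calls, chosen after their values were seen, had smaller log2 fold changes there. Krt20 was at -2.50 in PCT over WCN and at -0.58 in PST over WSN (adjusted p = 0.376 for PST over WSN). Emp1 was at -2.27 and -0.35 (adjusted p = 0.636), Zg16 at -4.58 and -1.75 (adjusted p = 0.177), and St6gal1 at 2.26 and 0.50 (adjusted p = 0.234), in the same order. None of these 4 passed the test in PST against WSN, nor the test of the difference.

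**Figure D5:**
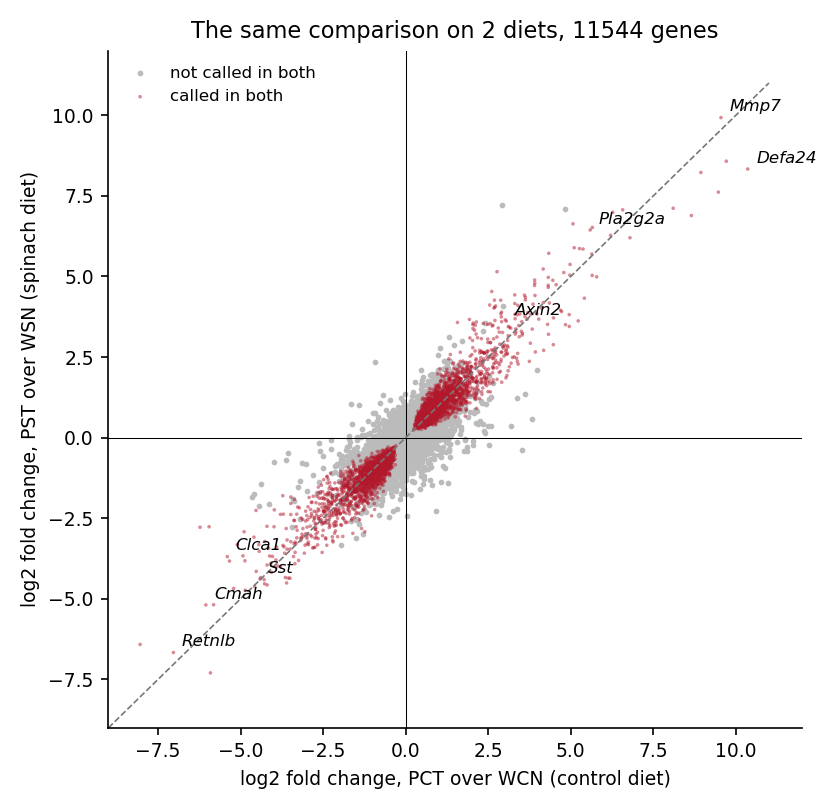
Log2 fold change of 11544 genes in PCT over WCN (horizontal) and in PST over WSN (vertical), contrasts that share no library. Red points are the 3520 genes called in both in the same direction, grey points the rest, and the dashed line marks equal values.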

How the data were processed

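RNA-seq was done by the study on frozen colon tissue (poly(A), directional, paired reads), and the submitters' notes name Bowtie2 and DESeq2. For the aligner settings, build, annotation and strand of counting, these were not given in the sources used here. As unit the authors chose RPKM, deposited per gene with 2 decimals, and per the labels each of the 18 libraries is a separate sample, 3 per group. Small RNA data were not used here.

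Of 17378 entries 26 had been turned into dates and were left out, and 17352 remained, 2707 of them 0 in all libraries. Genes that reached 1 RPKM in 3 or more libraries (11544) were tested with limma 3.58.1 (R 4.3.3) on log2(RPKM + 0.5), with a trend and robust variances, in 1 model over 18 libraries with no block, and p-values were adjusted by Benjamini-Hochberg over all genes. RPKM are not counts, so no count test was run, and 3 libraries per group limit the precision. Reads shared by gene families (α-defensins, Gstm1) or antisense genes may have been split between them. The fitting was tested on simulated data. Alternatives were other offsets, filters, thresholds, scalings, a replicate block and leaving out each PCT, WCN, PST and WSN library and PCN 2.

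The comparison, gene lists and tests were chosen with earlier results of these data known. Genes were named by a rule (the 12 largest called changes in each direction with no overlap of groups, the 10 most abundant genes of each group, up to 6 called members of each list by size of change at a mean of 5 RPKM or more, up to 4 members not called by level, Apc, and genes the study names), and genes outside it are said to be chosen after their values were seen. A few picks of the rule are not reported here.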

Additional observations from a re-analysis of the deposited data

How the results depend on the processing

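The 4549 calls in PCT against WCN (2880 higher, 1669 lower) numbered 2852 at an adjusted p under 0.01, 1776 higher and 1076 lower, and the other contrasts had 3250 (PST against WSN, 5072 at 0.05), 2002 (PCT against PCN, 3778 at 0.05) and 3 calls (PCN against WCN, 15 at 0.05). Leaving out 1 library gave 3497 to 4133 calls in PCT against WCN, 2179 to 2543 higher and 1262 to 1590 lower, 4251 to 4716 in PST against WSN, and, with PCT and WCN libraries left out and of PCN only PCN 2, 2367 to 3747 in PCT against PCN and 3 to 14 in PCN against WCN (3 without WCN 3 and 6 or 7 without PCT 1, PCT 2, PCT 3 or WCN 1). PCT against PCN had 2367 without PCT 1. PCN against WCN had 6 calls with an offset of 1 RPKM, 8 with the stricter filter, 0 with only the compared libraries and 5 without PCN 2, an alternative chosen after seeing the data, and the cause was not tested. The test of the difference between the diets called 0 to 1 genes with 1 library left out. Cldn7 and Epcam reversed with quantile normalization, Cldn7 at 0.20 (-0.43 without it) and Epcam at 0.24 (-0.46 without it).

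Replicate numbers do not mark shared rats in PCT and WCN, and same-numbered libraries had correlations of deviations of 0.0737, 0.102 and -0.185. A fit with the replicate block gave 4607 calls (2872 higher, 1735 lower), and 5115, 3836, 16 and 0 in the other tests. Of 280 called genes that the naming rule picked, 234 kept their call with any 1 library left out, 278 with the block, 270 with median-of-ratios scaling, 268 with quantile normalization and 232 at 0.01. Counts of reads are not at hand, so low RPKM values carry an unknown counting error, and 3 libraries per group leave small changes undetected.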
